A study of Homo sapiens with 97 samples.

Results

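Common fragile sites are stretches of chromosomes that form gaps and breaks in metaphase when DNA replication is partly inhibited, and many of them lie within very long genes. The 9 genes described here, of 10 in the set, are FHIT, WWOX, MACROD2, IMMP2L, LRP1B, DMD, CSMD1, CNTNAP2 and DLG2. They were taken by name and by fixed hg19 coordinates, a rule that uses no measured value. The genes were nevertheless chosen with earlier results of these data known. Their spans ran from 0.900 Mb for IMMP2L to 2.31 Mb for CNTNAP2, with a median of 2.058 Mb and a sum of 16.1 Mb. They held, with 500 kb on each side, 180 of 22719 timing intervals, 2 of 3733 nuclear origin peaks and 1 of 129 break sites.

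The study of 97 samples asked how replication is reduced near DNA double-strand breaks. Replication timing came from untreated wild-type U2OS cells, an osteosarcoma line, as 4 lists attached to 1 G1 and 1 S phase sample that are both named as merged. Origins came from NS-seq, which sequences short nascent DNA strands, in AsiSI-U2OS cells, which carry the restriction enzyme AsiSI so that 4OHT (4-hydroxytamoxifen) can induce breaks. The origin list is named as merged and is attached to an untreated input sample, so it could not be assigned to control cells or to cells given 300 nM 4OHT for 4 h. The break sites came from a different line, HCT116 colorectal carcinoma cells with a LIG4 knockout and AID-tagged RAD21 after 4OHT, as AsiSI sites overlapping binding of MRE11, a nuclease that acts at DNA ends. LIG4 is the ligase of non-homologous end joining and RAD21 a subunit of cohesin.

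Chromosomes replicate in domains that start at different times in S phase. Early domains tend to be rich in genes and origins, whereas late domains tend to hold fewer of both. Common fragile sites have been described as late-replicating and poor in origins, so that forks must travel far, and as sites where long transcription units and replication forks share the same DNA. They also depend on the cell type, since timing and transcription do. No list here separates samples, so no value below has a replicate error or a test, and read depth is unknown. Genes are not replicates of each other, and shares are therefore set beside genome tiles of the median gene length, 1451 in number.

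Most of these genes replicated late in U2OS cells. Late sequence made up 67.1% of the 9 spans, mid-late 20.39%, mid-early 9.26% and early 3.25%. In all listed sequence the 4 classes were close to equal, with 24.9% late and 25.5% early. The late share of a gene had a median of 88.97% and a mean of 71.7% ± 31.05 (SD over 9 genes). Late sequence exceeded 50% of the span in 6 of the 9 genes, whereas 23.6% of tiles passed the same limit. The other 3 genes, DLG2, CNTNAP2 and DMD, were mixed: pooled, their late share was 31.5%, against 91.6% for the 6 genes. In 8 of 9 genes the late share was above that of the gene's own chromosome, against 35% of tiles, and DMD was the exception with 22.55% against 38.1% for chromosome X.

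**Figure D1:**
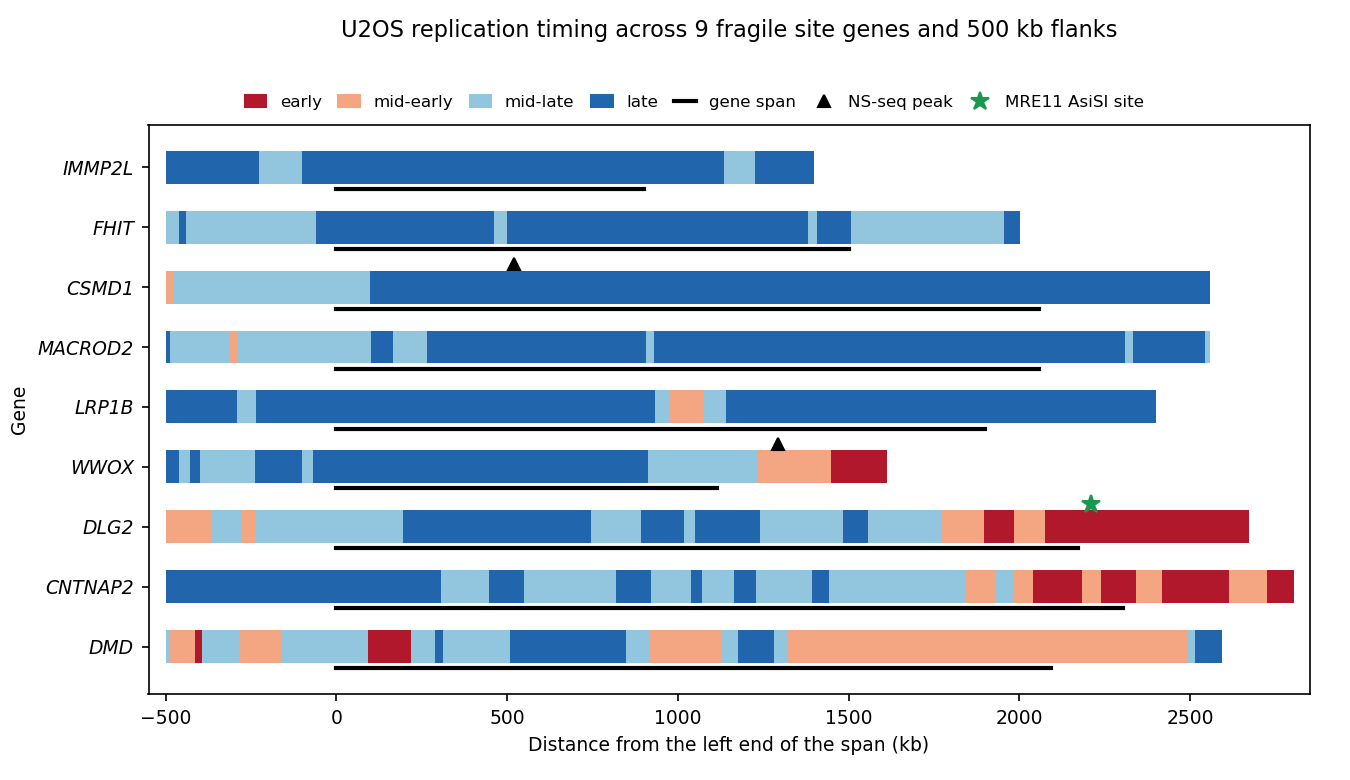
Replication timing class along each gene span (black line) and its 500 kb flanks, in kb from the left end of the span, with NS-seq peaks as triangles and the MRE11 site as a star. Genes are ordered by late share, and the upper 6 rows are mostly late while DLG2, CNTNAP2 and DMD alternate between classes.

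Among the genes for enzymes, FHIT encodes a hydrolase of diadenosine polyphosphates and lies at FRA3B, among the most often broken fragile sites. Its span, chr3:59735001-61237000, was 95.8% late and 4.24% mid-late. It held a late domain of 0.882 Mb and most of another of 0.520 Mb, where a domain joins neighbouring intervals of 1 class. Both 500 kb flanks of FHIT were mostly mid-late, with 12.95% late sequence together, so late replication followed the gene closely at both ends. WWOX encodes an oxidoreductase with WW domains and lies at FRA16D. Its span, chr16:78133001-79247000, was 81.95% late in 1 domain of 0.980 Mb that began 67.1 kb before the gene. The remaining 18.1% was a mid-late domain at the 3′ end, followed by mid-early and then early sequence in the right flank.

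MACROD2 encodes an enzyme that removes ADP-ribose from proteins. Its span, chr20:13976001-16034000, was 89.0% late, mainly in domains of 0.640 and 1.38 Mb separated by a short mid-late gap, with a smaller late domain of 63.7 kb near the left end. IMMP2L encodes a peptidase subunit of the inner mitochondrial membrane. Its span, chr7:110303001-111203000, was the shortest of the 9 and was 100% late, within 1 domain of 1.24 Mb. In RefSeq names, the neuronal membrane protein genes FLRT3 and LRRN3 lie nested in MACROD2 and IMMP2L. These 4 genes for enzymes and CSMD1 lacked early and mid-early sequence, 5 of the 9 genes against 15.6% of tiles. Those tiles are of all timing classes, whereas the 5 genes are mostly late. FHIT, WWOX and IMMP2L are also shorter than the tiles, and a shorter stretch lacks a class more easily. The count therefore has no matched background.

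Among the genes for membrane proteins, LRP1B encodes a large endocytic receptor of the LDL receptor family. Its span, chr2:140989001-142889000, was 88.97% late, in parts of a domain of 1.17 Mb and a domain of 2.26 Mb. Between them lay a mid-early stretch, from 973 to 1074 kb from the left end of the span, with mid-late sequence on either side. That stretch was singled out after its values were seen. CSMD1 encodes a membrane protein with CUB and sushi domains. Its span, chr8:2793001-4852000, was 95.2% late, almost all of it in a domain of 2.74 Mb, the 47th longest of 1783 late domains in the genome. CNTNAP2 encodes a neurexin family protein that places potassium channels along axons. Its span, chr7:145813001-148118000, was 28.6% late, 53.85% mid-late, 8.36% mid-early and 9.18% early. It entered from a late domain of 1.40 Mb, of which 308 kb lay in the span, and reached early sequence at its right end.

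Among the genes for scaffold proteins, DMD encodes dystrophin, which ties the cytoskeleton of muscle to the membrane. Its span, chrX:31137001-33230000, was 46.8% mid-early, 24.6% mid-late, 22.55% late and 6.07% early. The longest late domain of DMD was 0.342 Mb, and a mid-early domain of 1.17 Mb covered 769.8 kb of its right part. Whether reads covered all of that mid-early domain cannot be seen from region lists. DLG2 encodes a scaffold of the postsynaptic density. Its span, chr11:83166001-85338000, was 43.3% late, 38.2% mid-late, 10.0% mid-early and 8.51% early. The right end of DLG2 lay in an early domain of 1.95 Mb, and its longest late domain, of 0.551 Mb, lay towards the left end.

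Against tiles of each gene's own length, the order of the genes was similar but for IMMP2L. It had the highest late share, but came after CSMD1, FHIT and MACROD2 against tiles of its length. The share of such tiles that were at least as late was 6.07% for CSMD1, 7.43% for FHIT, 8.20% for MACROD2, 9.12% for IMMP2L and 9.14% for LRP1B. It was 14.5% for WWOX. For the mixed genes the share was higher, at 25.8% for DLG2, 33.1% for CNTNAP2 and 36.4% for DMD. Early sequence was lacking in 6 genes, against 34.7% of tiles of the median length. Of these genes, FHIT, WWOX, IMMP2L and LRP1B are shorter than those tiles, and a shorter stretch lacks a class more easily. The 6 genes are also the mostly late ones, and a share over mostly late tiles was not taken. All 4 classes were present in 3 genes, CNTNAP2, DLG2 and DMD, against 28.9% of tiles of the median length.

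**Figure D2:**
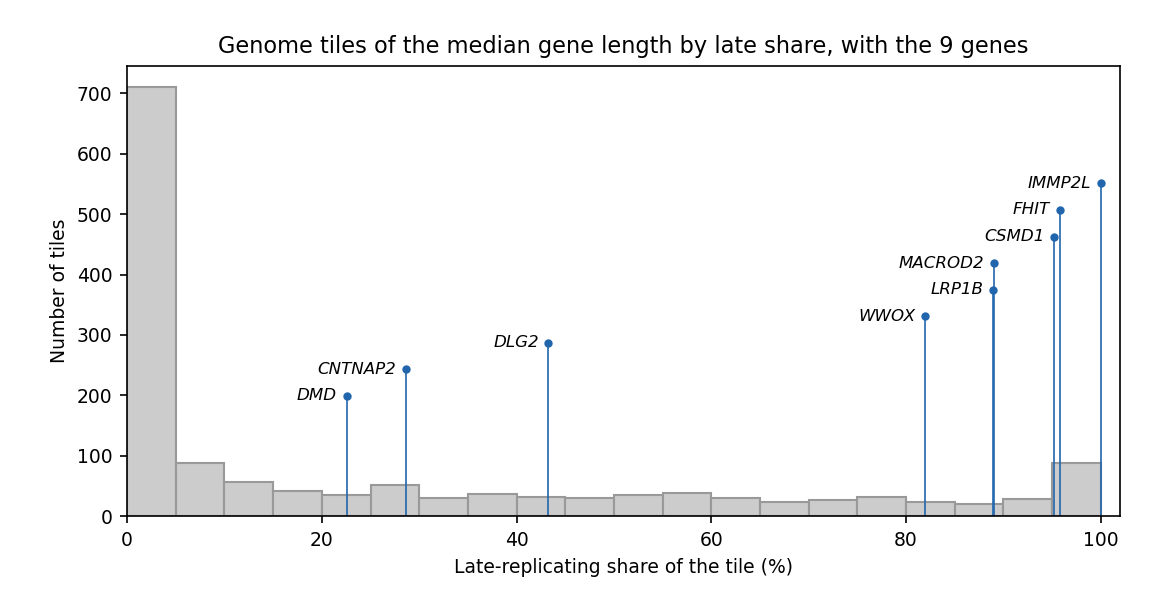
Number of non-overlapping genome tiles of the median gene length (y axis) by the share of the tile that is late (x axis, percent), with each gene's own late share as a labelled line whose height carries no value. Tiles pile up at both ends of the axis, and 6 genes sit above 50% late.

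The mixed genes changed class more often, which follows in part from how they were set apart, by a late share not above 50%. The spans of CNTNAP2, DLG2 and DMD held 7.38, 5.53 and 5.26 class borders per Mb, above the 4.53 per Mb of all listed sequence. The other genes ran from 0 in IMMP2L and 0.486 in CSMD1 to 2.66 per Mb in FHIT. A late domain of at least 500 kb overlapped the span of 8 of the 9 genes, against 34.9% of tiles, and DMD had none of that size. Those tiles are of all timing classes, and a mostly late stretch overlaps such a domain more easily. A share over mostly late tiles was not taken, so this count has no matched background. In CNTNAP2, only 308 kb of the domain lay in the span.

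To ask whether late replication belonged to the gene or to its wider region, each span was set beside its 500 kb flanks. Late sequence made up 67.1% of the spans and 40.9% of the flanks, and mid-late sequence 20.39% and 34.5%. For a single value per region, the classes were ranked early 1, mid-early 2, mid-late 3 and late 4 and averaged by length. The mean rank was 3.51 in the spans, 3.05 in the flanks and 2.50 in all listed sequence. The span was later than its flanks by mean rank in 8 of 9 genes, against 47.9% of tiles. A late tile leaves less room for later flanks, so the 6 mostly late genes were also set against mostly late tiles. Of the 6, 5 were later than their flanks, against 73.8% of those tiles, so this count lies near the background.

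The gap in mean rank between span and flanks was widest in DLG2, at 1.34, and in WWOX, at 1.09, followed by FHIT at 0.83. It was 0.47 in CSMD1, 0.44 in MACROD2, 0.33 in CNTNAP2, 0.22 in IMMP2L and 0.20 in DMD. LRP1B went the other way, at -0.11, and 94.5% of its flanks were late. A span later than each of its flanks taken singly was seen in 5 of the 9 genes, FHIT, WWOX, IMMP2L, DMD and DLG2, against 21.4% of tiles. Those tiles are of all timing classes, whereas FHIT, WWOX and IMMP2L are mostly late. A share over mostly late tiles was not taken, so this count has no matched background. In MACROD2, CSMD1 and CNTNAP2, 1 flank was at least as late as the gene and the other was earlier: the right flank of CSMD1 was 100% late. By late share in place of rank, 7 genes were later than their flanks, with LRP1B and CNTNAP2 as the exceptions, and CNTNAP2 was 28.6% late beside 50% of its flanks.

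**Figure D3:**
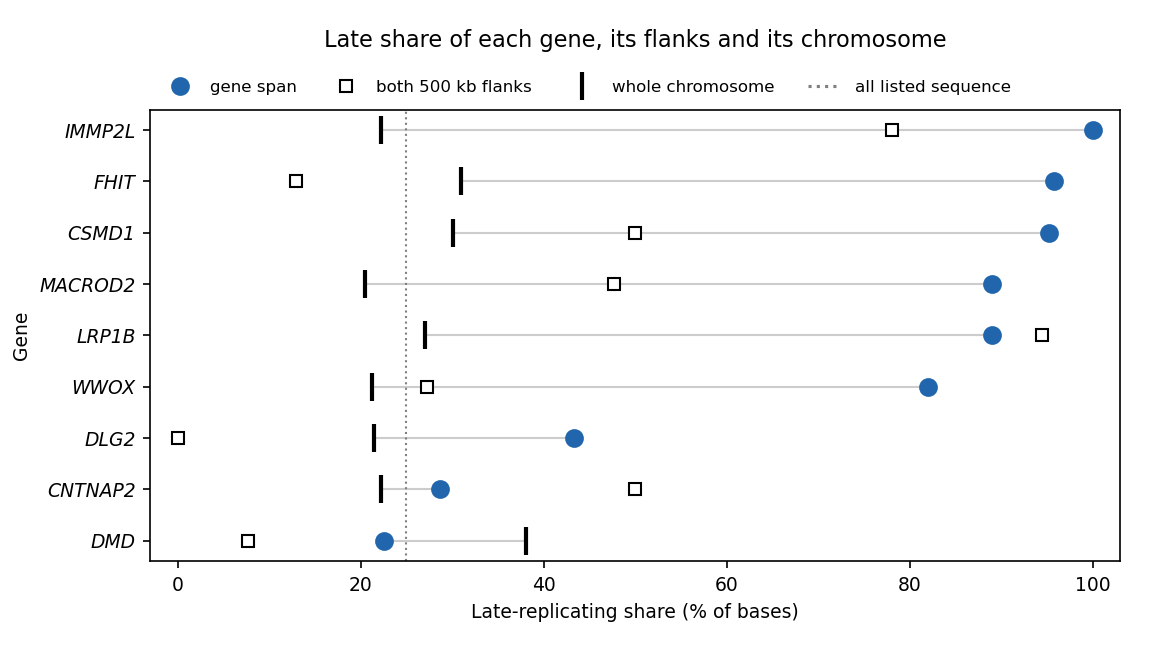
Late-replicating share of bases (x axis, percent) in each gene span (circles), in both 500 kb flanks together (squares) and in the whole chromosome (bars), with all listed sequence as the dotted line. Squares lie left of circles except in LRP1B and CNTNAP2, and only DMD lies below its chromosome.

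The direction of transcription was known for 7 genes, from the strand in the RefSeq promoter table: FHIT, WWOX, MACROD2, IMMP2L, DMD, CNTNAP2 and DLG2. Each of these spans was divided at its midpoint into a 5′ and a 3′ side. The 5′ side was earlier in 3 genes, later in 3 and equal in IMMP2L, and over all tiles the left side was earlier than the right in 46.1%. DLG2 and CNTNAP2 ran in opposite directions. In DLG2 the mean rank was 2.67 on the 5′ side and 3.66 on the 3′ side, and in CNTNAP2 it was 3.47 and 2.57. The 5′ end of DLG2 lay in early sequence and its 3′ end in mid-late sequence, with 65.7% of the 3′ side late, whereas the CNTNAP2 start lay in late sequence and its 3′ end in early sequence.

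DMD had a 5′ side at 2.29 and a 3′ side at 2.98, and MACROD2 a 5′ side at 3.78 and a 3′ side at 4.0. WWOX, late throughout its 5′ side, dropped to 3.64 on its 3′ side. FHIT differed by 0.02 between sides. Along DLG2 the rank rose from 1.42 in the first of 10 equal bins to 4.0 in bins 8 and 9, then fell to 3.11 in the last. Along CNTNAP2 it moved from 4.0 in the first bin to 1.23 in the last. DMD was latest in bin 7, at 4.0, and reached 1.88 in its last bin. The RefSeq DMD gene is 127.2 kb longer than the span, so the sides and bins of DMD are those of the span and may not reach the gene's ends.

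**Figure D4:**
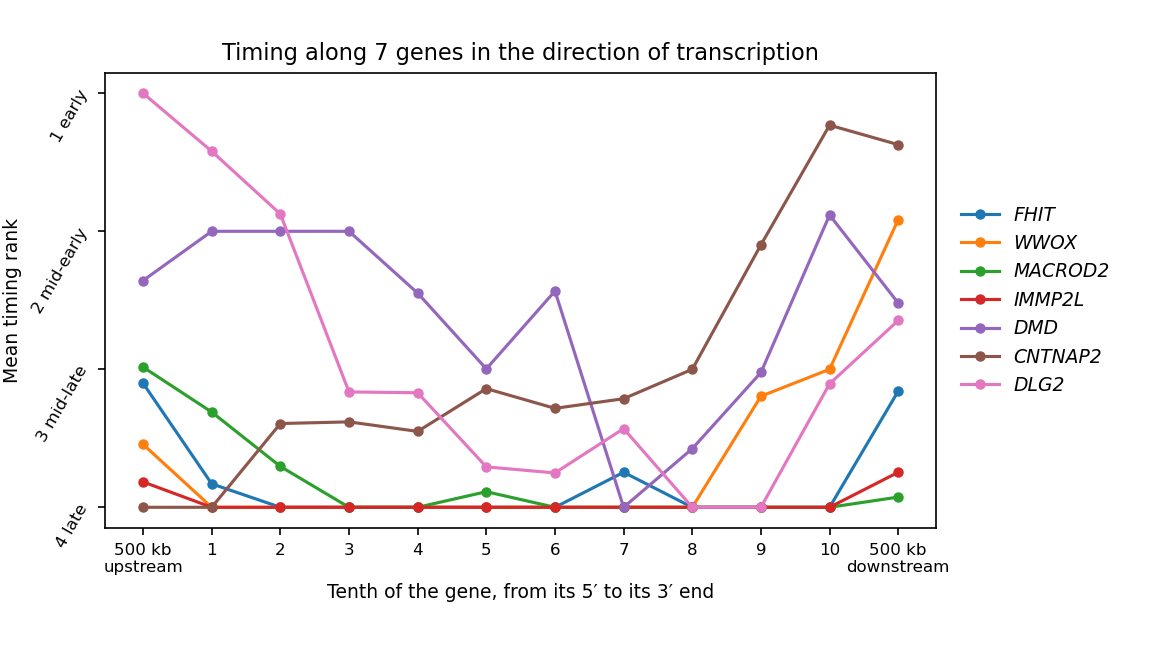
Mean timing rank (y axis, 1 early to 4 late, drawn with early at the top) in 10 equal bins of each gene from its 5′ to its 3′ end and in the 500 kb flanks, for the 7 genes with a known strand. DLG2 descends from early to late before its last bin, CNTNAP2 rises from late to early, and IMMP2L stays at 4 throughout the gene. DMD is drawn over its span, which is shorter than the RefSeq gene.

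Promoters are shown for DLG2, WWOX, IMMP2L and CNTNAP2, which differ in the class at the 5′ end. DLG2 started in early sequence and the other genes shown in late sequence. FHIT also started in late sequence, and its promoter is not shown. Each line gives the 250 bases before the outermost RefSeq start, 5′ to 3′ in the direction of transcription, with CG dinucleotides in capitals. The coordinates, chr11:85628374-85628623 on the minus strand for DLG2, chr16:78099404-78099653 on the plus strand for WWOX, chr7:111562493-111562742 on the minus strand for IMMP2L and chr7:146116551-146116800 on the plus strand for CNTNAP2, are of GRCh38.p14 and cannot be set against the hg19 lists. The RefSeq length of 8 genes lay within 2.18 kb of the span used here, and that of DMD was 127.2 kb longer. Similar lengths do not show that the ends coincide, so the timing class given for a start is that at the 5′ end of the span.
DLG2: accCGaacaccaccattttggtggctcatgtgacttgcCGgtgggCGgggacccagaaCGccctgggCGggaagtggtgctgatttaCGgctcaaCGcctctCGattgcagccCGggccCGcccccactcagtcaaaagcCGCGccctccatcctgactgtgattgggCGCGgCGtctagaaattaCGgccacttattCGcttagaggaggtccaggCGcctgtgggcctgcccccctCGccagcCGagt
WWOX: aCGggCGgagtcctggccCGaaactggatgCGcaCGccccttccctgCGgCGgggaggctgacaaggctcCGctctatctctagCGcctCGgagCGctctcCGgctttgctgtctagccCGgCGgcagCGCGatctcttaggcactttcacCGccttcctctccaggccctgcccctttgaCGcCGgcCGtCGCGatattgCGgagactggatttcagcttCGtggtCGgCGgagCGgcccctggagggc
IMMP2L: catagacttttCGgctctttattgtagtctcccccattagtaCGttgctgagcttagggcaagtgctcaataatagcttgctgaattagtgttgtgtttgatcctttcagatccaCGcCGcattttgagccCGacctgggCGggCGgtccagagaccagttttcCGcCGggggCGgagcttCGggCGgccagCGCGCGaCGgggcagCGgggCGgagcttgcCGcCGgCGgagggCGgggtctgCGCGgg
CNTNAP2: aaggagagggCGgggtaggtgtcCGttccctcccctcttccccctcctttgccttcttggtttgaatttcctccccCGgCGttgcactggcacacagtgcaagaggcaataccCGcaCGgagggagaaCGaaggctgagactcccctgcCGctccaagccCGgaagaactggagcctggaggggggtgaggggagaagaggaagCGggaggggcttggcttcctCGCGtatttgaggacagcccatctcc

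The early start of DLG2 did not stand apart in CG content. DLG2 had 20 CG dinucleotides in this window, fewer than the 27 of WWOX and the 24 of IMMP2L, both in late sequence. CNTNAP2 had 12, close to the median of 11 over 35116 RefSeq promoters. At least as many were found in 17.7% of all promoters for WWOX, 23.7% for IMMP2L, 32.5% for DLG2 and 48.5% for CNTNAP2. MACROD2, with a mid-late start, had the most of the 7 genes with an entry, at 29, and FHIT, with a late start, had 11. The G and C content of these windows ran from 54% in FHIT to 73.2% in MACROD2, with 64% in DLG2, where the median promoter had 58%. DMD, at 8 CG dinucleotides and 44.8%, is given without a timing class because the RefSeq gene is longer than the span.

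Few NS-seq peaks fell in these genes. The 9 spans held 1 peak, in CSMD1, or 0.0621 per Mb, with an exact Poisson 95% interval of 0.00157 to 0.346 that covers counting error only. All listed sequence held 1.24 peaks per Mb. At that density the spans would hold 19.96 peaks, and at the density of each timing class they would hold 10.8. These figures and the interval take peaks as evenly spread. Listed peaks were not, since 54.7% of tiles held none at a mean of 1.24 per Mb. The figures therefore do not measure the size of a deficit. No peak lay in the span of 8 genes, against 54.7% of tiles, and without CSMD1 the density was 0.

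Late sequence as a whole was poor in peaks, at 0.325 per Mb, and the long late domains were poorer. The 341 late domains of at least 500 kb held 101 peaks in 552 Mb, or 0.183 per Mb, and 85.0% of them held no peak. The late sequence of the 9 genes, with 1 peak, had 0.0926 per Mb, with an exact Poisson 95% interval of 0.00234 to 0.516. That interval covers the density of long late domains and that of all late sequence. Of the 6 mostly late genes, 5 held no peak, against 81.6% of mostly late tiles, a share near that background. The 3 mixed genes, 68.5% of whose pooled sequence was of other classes, held no peak, against 46.4% of tiles that were not mostly late.

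The CSMD1 peak, chr8:3314140-3315139, had a score of 12.9 and lay in late sequence 521.6 kb from the left end. The list has no score below 10, so sequence without a peak may hold origins that were not listed. The median score over nuclear peaks was 11.79. In the flanks of the 9 genes there was 1 peak, 179 kb right of WWOX in mid-early sequence.

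In 7 of the 9 genes, all but CSMD1 and WWOX, no peak lay in the span or within 1 Mb of it on either side, against 40.6% of tiles. Those tiles are of all timing classes, and mostly late tiles lacked a peak inside more often, in 81.6%. A share over mostly late tiles was not taken for the 1 Mb surroundings, so this count is not matched for timing. The nearest peaks to the left and right were 4.27 and 17.3 Mb from DLG2, 7.60 and 12.0 Mb from LRP1B, and 11.2 and 4.92 Mb from DMD. They were 4.14 and 12.0 Mb from IMMP2L, 7.26 and 5.16 Mb from FHIT, 6.10 and 1.35 Mb from CNTNAP2, and 2.96 and 1.38 Mb from MACROD2. Outside their spans, the nearest peaks were 1.02 and 0.624 Mb from CSMD1, and 3.69 and 0.179 Mb from WWOX. The DLG2 midpoint lay in a stretch of 23.7 Mb without a peak, the 13th longest of 3757 stretches between listed peaks or chromosome ends. Long stretches cover much of the genome: stretches at least as long held 15.8% of listed sequence for DLG2, 19.4% for LRP1B, at 21.5 Mb, and 25.8% for DMD, at 18.3 Mb. The share was 27.5% for IMMP2L, 32.05% for FHIT, 41.5% for CNTNAP2, 54.7% for MACROD2, 60.5% for WWOX and 73.7% for CSMD1. The early domain at the DLG2 start, 1.95 Mb long, lay inside the 23.7 Mb stretch.

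**Figure D5:**
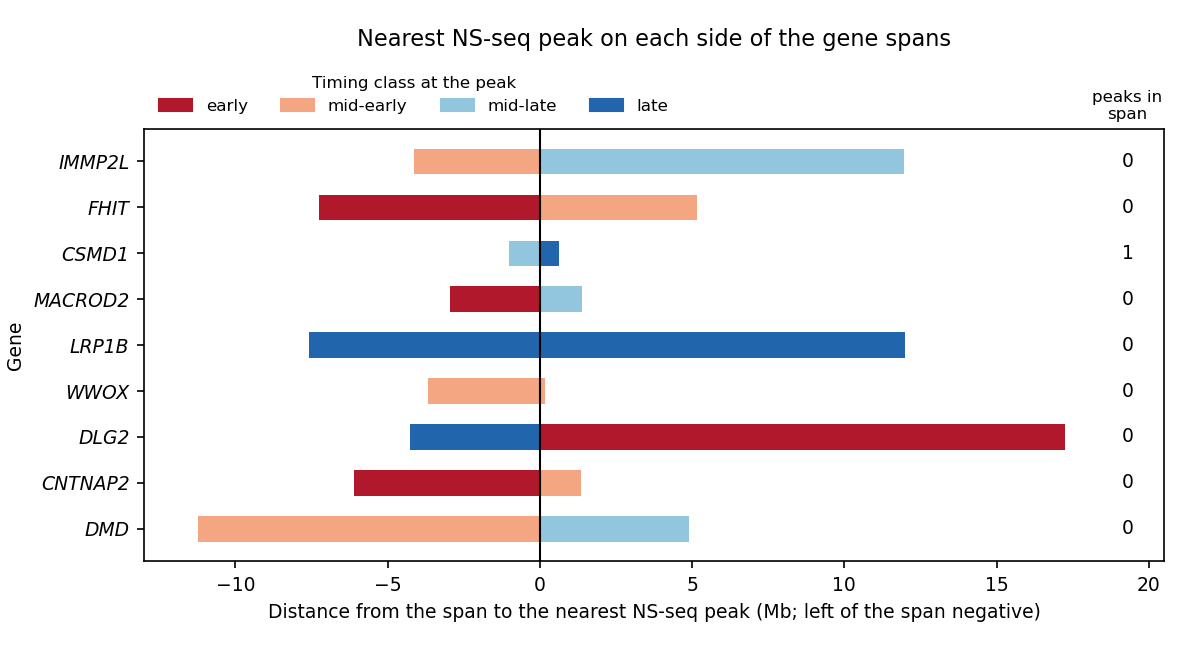
Distance in Mb from each gene span to the nearest NS-seq peak on its left (negative) and right, coloured by the timing class at that peak, with the number of peaks inside the span at the right. Only CSMD1 has a peak in the span, and the longest bar is the 17.3 Mb to the right of DLG2.

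Of the 129 MRE11 AsiSI sites, 0 lay in a span, where 7.79% of tiles held one. With flanks, 1 of the 9 genes, DLG2, had a site, against 11.3% of tiles of span and flank length, so the count lay near the background. That site, chr11:85375654-85375661, lay 37.7 kb beyond the 5′ end of DLG2, in the early domain that also covers its start. Of the other genes, the nearest site was 2.66 Mb from IMMP2L, 3.39 Mb from CSMD1, 4.00 Mb from MACROD2, 4.04 Mb from CNTNAP2 and 4.20 Mb from DMD. It was 6.20 Mb from WWOX, 7.50 Mb from FHIT and 20.9 Mb from LRP1B. AsiSI cuts a fixed recognition sequence, so these are sites where the enzyme can cut and MRE11 was found in HCT116 cells, and they do not measure breakage of fragile sites.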

How the data were processed

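The values are 6 lists of hg19 regions deposited by the authors. The NS-seq list gives each peak a score, deposited with no stated scale and used here to describe peaks and to split them at its median. Per the submitters' processing notes the build is hg19 and MACS2 was used, with no role or version. Not given in the sources used here: how the 4 timing classes were divided, which libraries were merged, and how peaks were filtered. Depth cannot be known from region lists, so no interval for depth can be given, and 1 list per class allows no test.

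Base pairs of each class were summed over each span and its 500 kb flanks with Python 3.11.15 and numpy 2.4.6, and peaks and sites were placed by midpoint. Tiles of the median span length ran from the first listed base of each of 24 chromosomes, with incomplete last tiles left out. Listed timing intervals met end to end, so any sequence without mapped reads also carries a class, in spans and in tiles. When tiles that touched a mid-early interval over 1 Mb were left out, 24.6% of tiles were mostly late. The summing was checked on simulated intervals. The 9 genes are named, with each joined domain of 300 kb or more in a span and the nearest peaks and sites. The genes, the groups by role and the measures were chosen with earlier results of these data known. Strand, neighbour names and promoters come from RefSeq on GRCh38.p14, where 7 of the 9 genes had a promoter entry at the outermost start. LRP1B and CSMD1 had none. Of the 10 genes in the set, 1 is not reported here. Other long genes were not compared, since no hg19 annotation was used here.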

Additional observations from a re-analysis of the deposited data

How the results depend on the processing

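Over 9 counts and shares, 51 of 54 alternative settings stayed within the limit set for each. The limits were 1.5 times a count, 1 SD over genes for the late share and a binomial interval for shares of tiles. For the peak density it was the Poisson interval, which is wide. The SD, 31.05 points, is wide as well, since leaving out 1 gene can hardly move a pooled share that far. The tally is therefore no measure of robustness for the late share or the peak density. The count of genes with an MRE11 site was 0 without flanks, and the share of tiles with no NS-seq peak was 67.3% with 1 Mb tiles. The late share of the spans was 57.7% with flanks included and 62.98% to 73.75% when each gene was left out in turn. The count of mostly late genes stayed at 6 with flanks included, with shortened spans and with a stricter limit. It was 8 with a looser limit or with mid-late joined to late, under which a gene need not be mostly late. No share of tiles was taken at those looser settings. The count of genes later than their flanks was 7 with 1 Mb flanks. The peak density rests on 1 peak: it was 0 per Mb without CSMD1, 0.0725 without CNTNAP2 and 0.117 with 1 Mb flanks. The 5′ end was the earlier in 4 genes, DMD among them, when only the first and last 100 kb of each span were compared. No paired analysis was possible because each list holds merged samples without replicates. Depth, the score limit of 10 and the different cell lines limit every absence of a peak or site.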
